A study of Saccharomyces cerevisiae with 4 samples.

Results

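The genes described here encode budding yeast translation factors and aminoacyl-tRNA synthetases. They are the rows of the deposited table whose open reading frame maps to 1 of 51 listed symbols, out of 6212 rows. All 51 had a row. Isoleucyl-tRNA synthetase (ILS1) lies in a stretch of the table that was left out because its columns are out of register, and the other 50 genes were measured on all 4 arrays. The 51 genes comprise 18 synthetases, 7 elongation factor genes, 7 genes of cap binding and the mRNA helicase (eIF4), 5 subunits of eIF3, 8 subunits of eIF2 and eIF2B, 4 genes for eIF1, eIF1A, eIF5 and eIF5B, and 2 release factors.

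The study used 4 spotted 2-colour arrays of total RNA from Saccharomyces cerevisiae labelled DBY4741. On the mutant arrays, untreated reg1::KanMX cells in log phase were set against untreated wild-type cells. On the alkali arrays, reg1::KanMX cells given 16 mM KOH for 10 min (about pH 8.0) were set against reg1::KanMX cells given 16 mM KCl for 10 min in medium of about pH 5.5, so both sides of the alkali comparison lack REG1. YPD, a rich medium with glucose, was used at 28 °C for all cultures. Each comparison has 2 dye-swapped arrays, called experiments 1 and 2. The labels name no separate clones or cultures behind them, so the p-values rest on the spread between these arrays alone, which may be technical. REG1 encodes a targeting subunit of the protein phosphatase Glc7 that acts in glucose repression. Arrays of wild-type cells under alkali were not analysed here.

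Aminoacyl-tRNA synthetases join each amino acid to its tRNA. Initiation factors then bring the initiator tRNA (eIF2), the small ribosomal subunit (eIF3, eIF1, eIF1A) and the capped mRNA (eIF4E, eIF4G, eIF4A) together, elongation factors deliver charged tRNAs and move the ribosome, and release factors end the chain. In yeast these genes are among the more highly expressed ones, and their transcripts are known to fall with those of ribosomal proteins when growth slows.

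Values are log ratios, taken as base 2, of mutant over wild type or of KOH over KCl. They compare shares of each RNA sample and not amounts per cell. REG1 itself (YDR028C) had -1.103 and -0.959 on the mutant arrays, which sets the direction there. ENA1 (YDR040C), the sodium pump gene known to be induced by alkali, had 7.40 on both alkali arrays. Between 4746 and 5190 rows were measured per array. Rows from YKL011C onward hold mutant values displaced by 2 rows and were read 2 rows further down, which concerns 25 of the 50 measured genes. Their mutant means spread with an SD of 0.202 across genes when realigned and 0.281 at their own names (20 of 25 measured there), against 0.203 for the 25 genes in register. The number of arrays limits the precision.

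After 10 min of alkali, 23 of the 50 genes fell and 4 rose, and 23 did not pass the test (limma, adjusted p under 0.05 over all genes). Genes for small initiation factors fell furthest, led by eIF1 (SUI1, 4.32-fold lower), eIF4E (CDC33, 3.33-fold lower) and the eIF2B subunit GCN3 (3.04-fold lower). The genes that rose were eIF4G2 (TIF4632) and the leucyl-, alanyl- and valyl-tRNA synthetases CDC60, ALA1 and VAS1. The median over the 50 genes was -0.42, against -0.085 over all 4584 genes tested. Over all genes 61.8% were called, 32.7% lower and 29.1% higher, beside 46.0% lower and 8.0% higher of the 50. Without adjustment 29 of the 50 had a p under 0.05, against 66.2% of all genes. Both arrays lay below 0 for 34 of the 50 (49.5% of all genes) and above 0 for 10 (41.5% of all genes). A change of at least 2-fold on each array was seen downward for 7 of the 50 and upward for 0, against 13.4% and 14.9% of all genes. The 2 arrays differed by a median of 0.16 in absolute log2 ratio over the 50 genes. Without the array of experiment 1, 7 of the 50 were called lower and 0 higher, and without that of experiment 2 it was 7 and 2. A lone array is then assumed to vary like the mutant arrays.

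**Figure D1:**
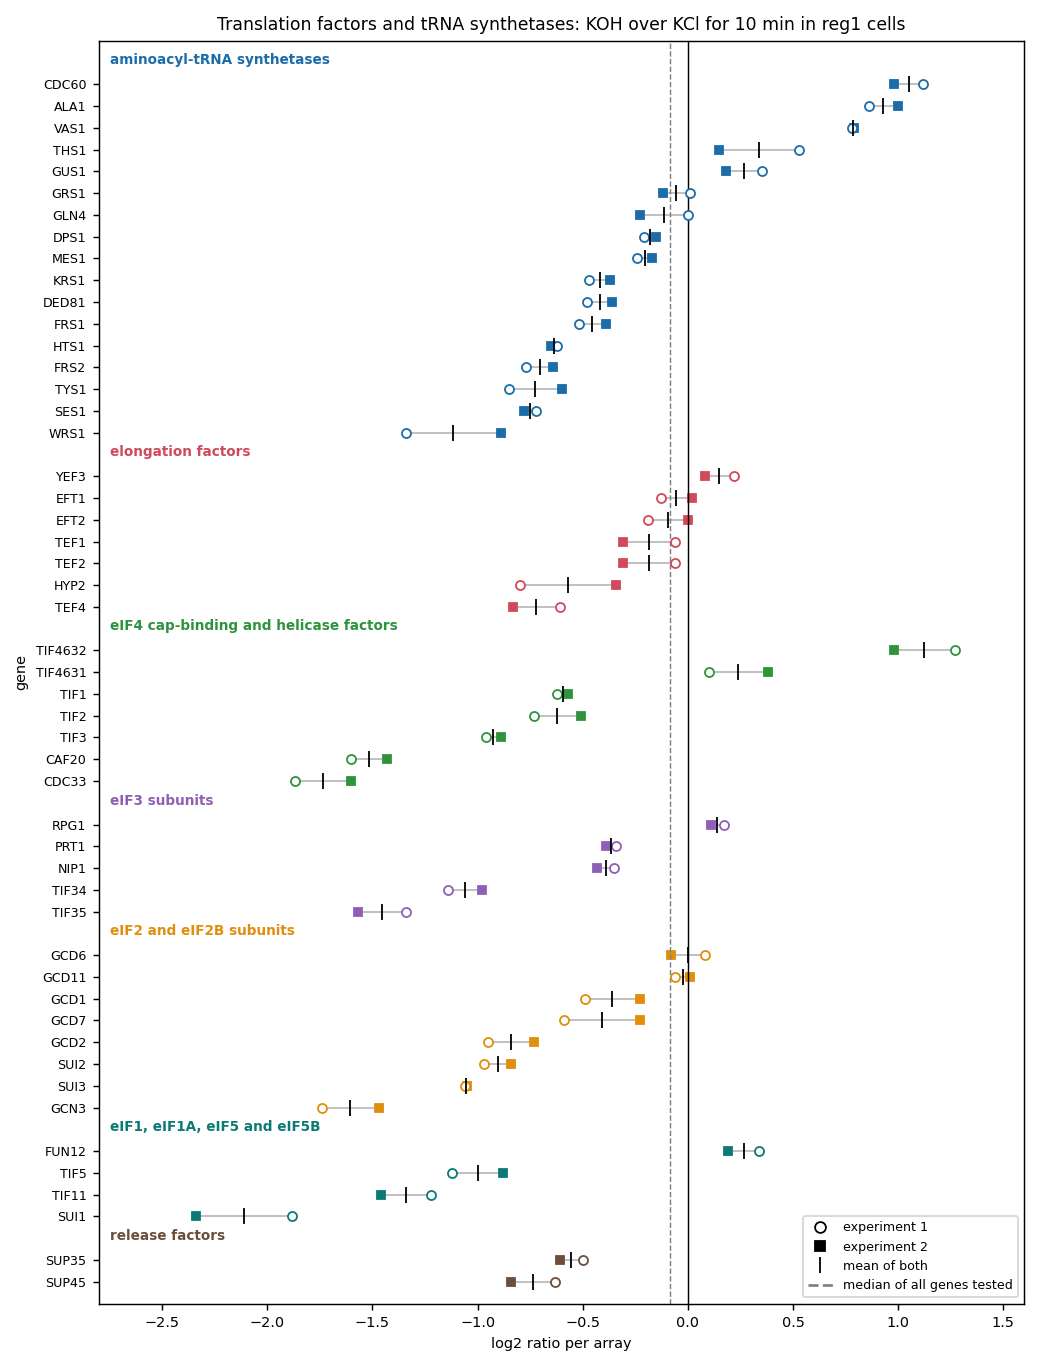
Log2 ratio of KOH over KCl in reg1 cells (x axis) for the 50 measured genes, grouped by role, with experiment 1 as open circles, experiment 2 as squares and their mean as a bar; the dashed line is the median of all genes tested. SUI1 lies lowest at -1.88 and -2.34, and TIF4632 highest at 1.27 and 0.98.

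Among the aminoacyl-tRNA synthetases, 5 of 17 measured genes fell and 3 rose under alkali, with a median of -0.205. These are 29.4% lower and 17.6% higher, against 32.7% and 29.1% of all genes, so neither share exceeded that of all genes. Leucyl-tRNA synthetase (CDC60, YPL160W) had 1.12 and 0.98 on the 2 arrays, a mean of 1.05 ± 0.10 (SD, n = 2) or 2.07-fold (limma adjusted p = 0.00194). Alanyl-tRNA synthetase (ALA1, YOR335C) had 0.86 and 1.00, 1.91-fold higher (limma adjusted p = 0.00382). Valyl-tRNA synthetase (VAS1, YGR094W), which charges tRNA in both cytosol and mitochondria, had 0.78 and 0.79, 1.72-fold higher (limma adjusted p = 0.0266). Both arrays placed each of these 3 genes above KCl.

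At the other end, tryptophanyl-tRNA synthetase (WRS1, YOL097C) had -1.34 and -0.89, a mean of -1.115 ± 0.32 (SD, n = 2) or 2.17-fold lower (limma adjusted p = 0.03). Seryl-tRNA synthetase (SES1) had -0.72 and -0.78, and tyrosyl-tRNA synthetase (TYS1) had -0.85 and -0.60. Both fell, as did the 2 genes for the subunits of phenylalanyl-tRNA synthetase, FRS2 (-0.77 and -0.64) and FRS1 (-0.52 and -0.39). FRS1 was the closest to the threshold of the genes that passed (limma adjusted p = 0.0462), and it did not pass after centring (0.075) or with the replicate block (0.0647), with 0.00675 to 0.346 over all 14 alternatives.

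The remaining synthetase genes did not pass. Histidyl-tRNA synthetase (HTS1) had -0.62 and -0.65 with nearly equal arrays, yet an adjusted p of 0.122 in limma, whose estimate of the spread also takes in its mutant values of 0.474 and -0.828. With the spread of the alkali arrays alone, its adjusted p was 0.00692 (0.0054 to 0.529 over 14 alternatives). The lysyl- and asparaginyl-tRNA synthetase genes KRS1 and DED81 both had a mean of -0.42, and methionyl- (MES1), aspartyl- (DPS1), glutaminyl- (GLN4) and glycyl-tRNA synthetase (GRS1) lay between -0.205 and -0.055. Threonyl- (THS1, 0.53 and 0.15) and glutamyl-tRNA synthetase (GUS1, 0.35 and 0.18) lay above 0 on both arrays. The 17 synthetase genes thus ranged from -1.115 to 1.05, several times the median difference of 0.13 between the 2 arrays.

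Of the elongation factor genes, TEF4 and HYP2 fell and the other 5 did not pass. The share that fell was 28.6%, against 32.7% of all genes. TEF4 (YKL081W), which encodes the gamma subunit of the exchange factor for eEF1A, had -0.61 and -0.83 (limma adjusted p = 0.0274). HYP2 (YEL034W), which encodes the hypusine-containing factor eIF5A, had -0.80 and -0.34 (limma adjusted p = 0.0328). HYP2 and SUI1 were the least even of the 50 genes between arrays, each with an SD of 0.325. YEF3, the gene of the fungal factor eEF3, had 0.22 and 0.08, and was the highest of this group.

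The eEF1A genes TEF1 and TEF2 encode the same protein and had exactly the same values, -0.06 and -0.31. The same pair of values stands in 5 rows of the alkali columns, the others being the glyceraldehyde-3-phosphate dehydrogenase genes TDH2 and TDH3 and the cell wall gene CCW12. No other pair of alkali values is held by that many rows. On the mutant arrays TEF1 had 0.803 and -0.600 and TEF2 had 0.157 and 0.103, and no pair of mutant values was held by more than 2 rows. Why these 5 rows share their values was not tested, so the TEF1 and TEF2 ratios under alkali are given only as deposited. The eEF2 genes EFT1 (-0.13 and 0.02) and EFT2 (-0.19 and 0.00), which also encode identical proteins, lay close to each other. Spots of such near-identical copies may share signal.

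The eIF4 genes spread over the widest range of any of the 7 role groups, with 5 that fell, 1 that rose and 1 that did not pass. Of all genes, 32.7% fell and 29.1% rose. CDC33 (YOL139C), the cap-binding protein eIF4E, had -1.87 and -1.60, a mean of -1.735 ± 0.19 (SD, n = 2; limma adjusted p = 0.00343). CAF20 (YOR276W), which binds eIF4E in competition with eIF4G, had -1.60 and -1.43, 2.86-fold lower (limma adjusted p = 0.00221). The gene for eIF4E and that for its binding protein thus lay at percentiles 4.9 and 7.0 of all genes tested.

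The helicase genes TIF1 (YKR059W, -0.62 and -0.57) and TIF2 (YJL138C, -0.73 and -0.51), both of which encode eIF4A, fell by similar amounts. Spots of these near-identical copies may share signal as well. TIF3, the eIF4B gene, had -0.96 and -0.89 (limma adjusted p = 0.00315). The 2 eIF4G genes lay on the other side of 0. TIF4632 (YGL049C) had 1.27 and 0.98, 2.18-fold higher (limma adjusted p = 0.00209), whereas TIF4631 (YGR162W) had 0.10 and 0.38 and did not pass (limma adjusted p = 0.344). Both arrays placed TIF4632 above TIF4631, but that difference itself was not tested.

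The subunits of eIF3, the scaffold that joins the mRNA to the small ribosomal subunit, did not have equal ratios. TIF35 (YDR429C, eIF3g) had -1.34 and -1.57, and TIF34 (YMR146C, eIF3i) had -1.14 and -0.98. Both fell (limma adjusted p = 0.00447 and 0.00251), which is 40.0% of the group against 32.7% of all genes. The genes of the larger subunits did not pass, with -0.35 and -0.43 for NIP1 (eIF3c), -0.34 and -0.39 for PRT1 (eIF3b), and 0.17 and 0.11 for RPG1 (eIF3a). The arrays gave the same order of means for TIF35, TIF34 and RPG1, and the median difference between arrays in this group was 0.08.

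Of the genes for eIF2, which carries the initiator tRNA, SUI3 (beta subunit) had -1.06 and -1.05 and SUI2 (alpha subunit) -0.97 and -0.84, and both fell (limma adjusted p = 0.00181 and 0.00894). GCD11, the gamma subunit that binds GTP, had -0.06 and 0.01. In eIF2B, the guanine nucleotide exchange factor of eIF2, GCN3 (YKR026C, alpha subunit) had -1.74 and -1.47, a mean of -1.605 ± 0.19 (SD, n = 2; limma adjusted p = 0.000653). GCN3 is a regulatory subunit needed for the inhibition of eIF2B by phosphorylated eIF2. GCD2 (delta subunit) had -0.95 and -0.73 and also fell (limma adjusted p = 0.0177). GCD7 (-0.59 and -0.23), GCD1 (-0.49 and -0.23) and the catalytic subunit GCD6 (0.08 and -0.08) did not pass. In all, 4 of these 8 genes fell and 0 rose, against 32.7% and 29.1% of all genes.

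Of the genes for the factors that scan for the start codon and join the subunits, 3 of 4 fell, against 32.7% of all genes. SUI1 (YNL244C), which encodes eIF1, had -1.88 and -2.34, the lowest mean of the 50 genes at -2.11 ± 0.33 (SD, n = 2; limma adjusted p = 0.000507). TIF11 (YMR260C, eIF1A) had -1.22 and -1.46 (limma adjusted p = 0.00149), and TIF5 (YPR041W, eIF5, which promotes GTP hydrolysis on eIF2) had -1.12 and -0.88 (limma adjusted p = 0.026). FUN12, which encodes the subunit-joining GTPase eIF5B, had 0.34 and 0.19 and did not pass. Both release factor genes fell, SUP45 (eRF1) with -0.63 and -0.84 and SUP35 (eRF3) with -0.50 and -0.61 (limma adjusted p = 0.00892 and 0.0239).

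The alkali ratios of these genes followed gene length. Coding length, introns included, was taken from the RefSeq table of assembly R64, where 96.3% of protein-coding lengths are multiples of 3, and was known for all 51 genes. Over the 50 genes, alkali means and length had a Spearman rho of 0.86 (Pearson r of 0.84 with log2 length), with 0.875 and 0.832 on the 2 arrays, and over all 4332 genes with a length it was 0.50. Genes are not independent replicates, and the genes of an array share its RNA and hybridisation, so these are descriptions. All 9 genes under 1000 bases fell, with means from -2.11 to -0.57, against 49.8% of all genes of that class. Between 1000 and 2000 bases 13 of 22 fell, against 29.6% of all genes. Between 2000 and 3000 bases 1 of 15 fell and 2 rose, against 10.3% and 55.6% of all genes. Above 3000 bases 2 of 4 rose, against 89.0% of all genes. Over all genes the medians in the same classes were -0.515, -0.09, 0.605 and 1.46, and those of the members -1.455, -0.628, -0.055 and 0.525. In each length class the median of the members was the lower one. Within complexes, the short subunits TIF34 (1044 bases) and TIF35 (825 bases) lay below RPG1 (2895 bases), and among synthetases WRS1 (1299 bases) lay below CDC60 (3273 bases) and VAS1 (3315 bases). Other pairs ran the other way: in eIF2B, GCD2 (1956 bases) lay below the shorter GCD7 (1146 bases), and WRS1 lay below the shorter TYS1 (1185 bases).

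**Figure D2:**
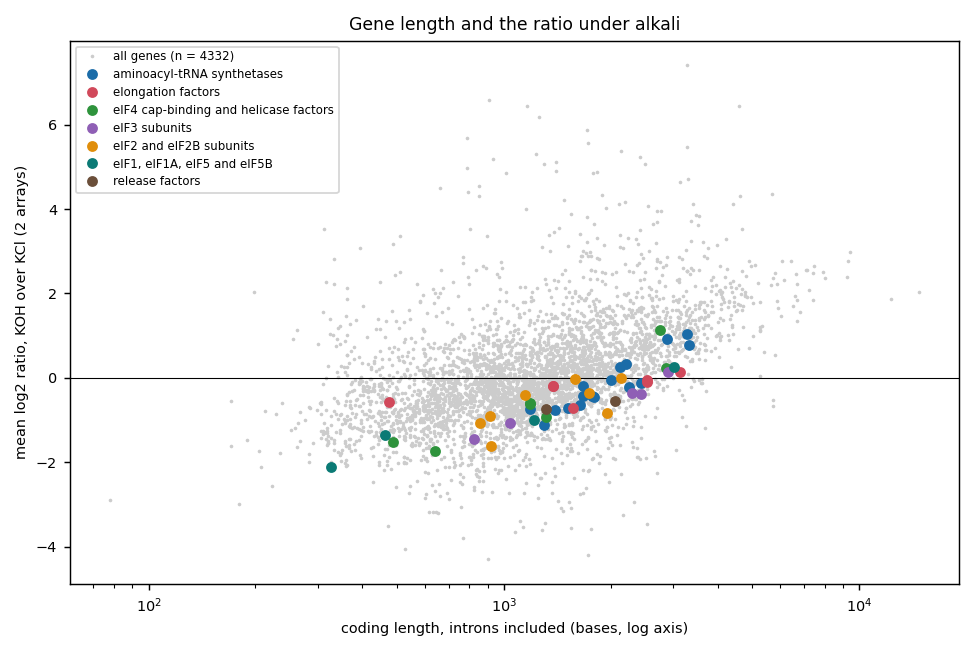
Mean log2 ratio of KOH over KCl (y axis) against coding length in bases (log axis) for all 4332 genes with a length (grey) and the 50 measured genes coloured by role. Long genes lie higher throughout, with a Spearman rho of 0.50 over all genes and 0.86 over the coloured ones.

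When each array's trend on length over all genes was subtracted, a setting chosen after seeing the data, 35 of the 50 genes were called lower and 0 higher, against 27.6% and 22.5% of all genes. The median of the 50 genes was -0.776 and that of all genes -0.099. Of the 27 genes called before, 20 kept their call. The 4 genes that rose no longer passed, with CDC60 at -0.198, ALA1 at -0.099, VAS1 at -0.483 and TIF4632 at 0.178. Among the decreases, HYP2 (0.021), TIF1 (-0.42) and TIF2 (-0.445) were lost. The 15 genes newly called lower include all of the larger eIF3 subunits, namely NIP1 (-1.136), PRT1 (-1.005) and RPG1 (-0.90), together with YEF3 (-1.03), EFT1 and EFT2, TIF4631 and FUN12. All 5 eIF3 genes, both release factor genes and all 4 genes of the eIF1 to eIF5B group then passed as lower. SUI1 (-1.35), GCN3 (-1.34), CDC33 (-1.245) and GCD2 (-1.23) were lowest. The cause of the trend was not tested.

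**Figure D3:**
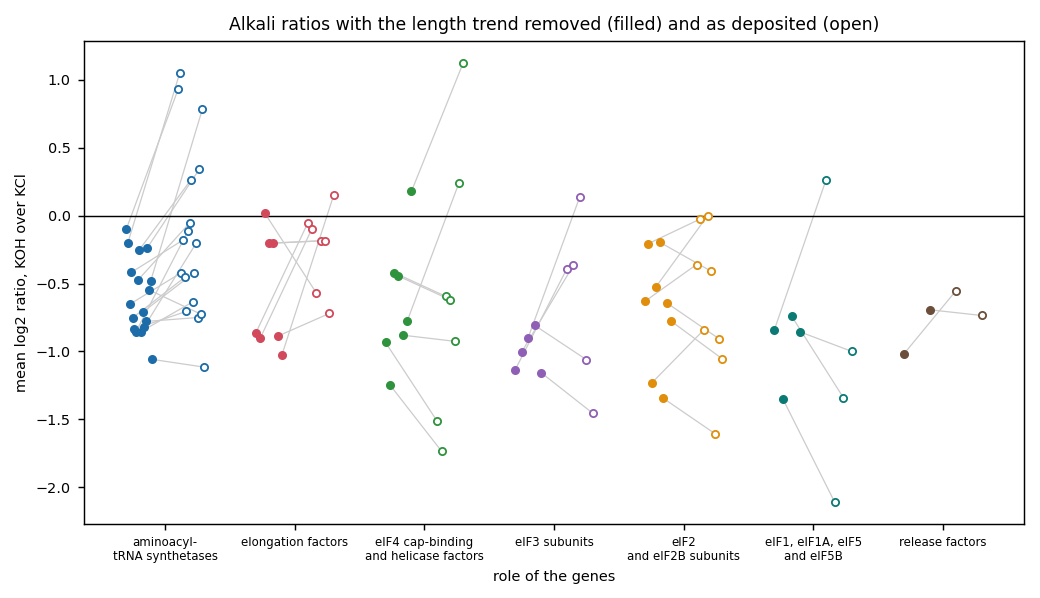
Mean log2 ratio of KOH over KCl (y axis) for each of the 50 genes by role (x axis), with the length trend removed (filled, left) and as deposited (open, right), joined by a line. The 17 synthetase genes range from -1.12 to 1.05 as deposited, and all lie below 0 with the trend removed.

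In the reg1 mutant without alkali, none of the 50 genes passed the test against wild type, beside 7.16% of all 4765 genes tested (5.2% higher and 1.95% lower; limma, adjusted p under 0.05). Without adjustment 3 of the 50 had a p under 0.05, against 25.0% of all genes. None reached 2-fold on both arrays, which 2.9% of all genes did upward and 0.714% downward. With the length trend removed 0 of the 50 were called as well, against 6.49% of all genes higher and 2.49% lower. The median of the 50 genes was -0.091, against -0.048 over all genes, and their means lay between -0.496 and 0.56. The alkali ratios of the same genes ran from -2.11 to 1.125. On simulated data of the same size, 57% of genes changed 2-fold in the mutant comparison were recovered and 100% of those changed 4-fold (an absolute log2 of 2). The simulation gave a gene the same spread on all 4 arrays and held no shift shared by genes of an array. The real mutant arrays differed by a median of 0.323 over all genes, against 0.18 for the alkali arrays. These shares may therefore be too high for the mutant comparison.

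**Figure D4:**
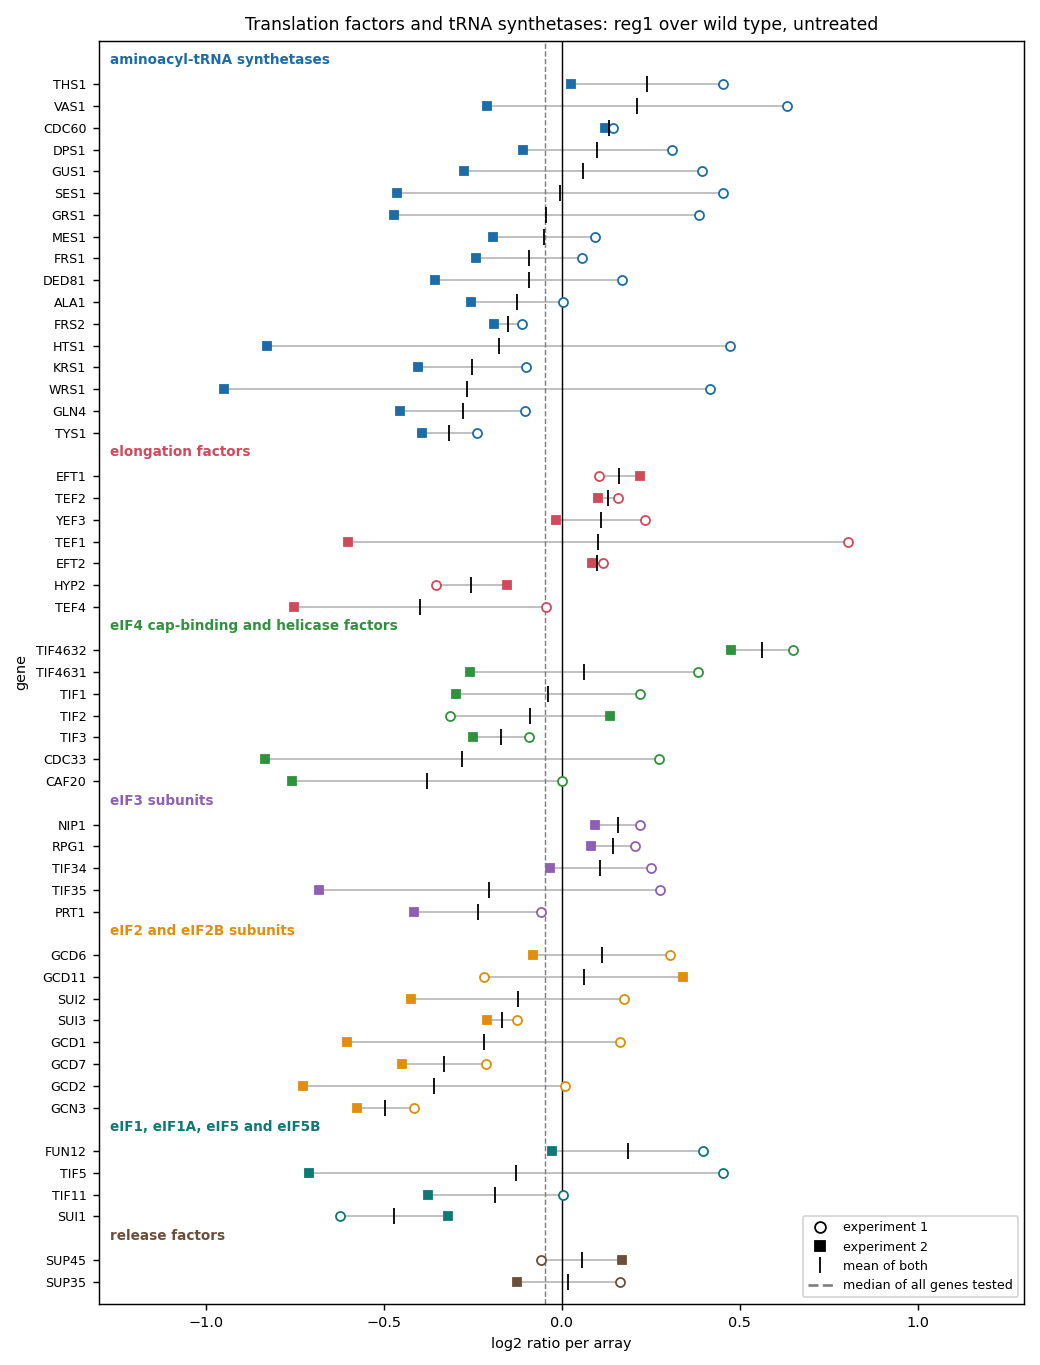
Log2 ratio of reg1 over wild type (x axis) for the 50 measured genes, grouped by role, with experiment 1 as open circles, experiment 2 as squares and their mean as a bar; the dashed line is the median of all genes tested. Experiment 1 lies above experiment 2 for 44 of the 50 genes.

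The 3 genes with an unadjusted p under 0.05 were TIF4632, GCN3 and SUI1. The eIF4G2 gene TIF4632 was the highest of all, with 0.649 and 0.477 and a mean of 0.56 ± 0.12 (SD, n = 2; limma adjusted p = 0.0978). GCN3 was the lowest, with -0.415 and -0.576 and a mean of -0.496 ± 0.11 (SD, n = 2; limma adjusted p = 0.123). SUI1 had -0.624 and -0.319 (limma adjusted p = 0.185). Each of the 3 had the same sign on both arrays, which held for 8 of the 50 genes above 0 (27.4% of all genes) and 12 below 0 (34.5% of all genes). With the arrays scaled to the same spread, TIF4632 (0.834, adjusted p = 0.0415) and GCN3 (-0.731, adjusted p = 0.0494) passed in limma. The adjusted p over all alternatives ranged from 0.0415 to 0.237 for TIF4632 and from 0.0494 to 0.59 for GCN3.

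By role, the mutant medians lay between -0.194 for eIF2 and eIF2B and 0.108 for eIF3. Of the synthetases, THS1 was highest (0.454 and 0.026), followed by VAS1 (0.633 and -0.210), and TYS1 lowest (-0.239 and -0.392). Their 17 means lay between -0.316 and 0.24, a range narrower than the differences between arrays of several of them. Among elongation factors, EFT1 (0.105 and 0.220) and EFT2 (0.117 and 0.084) lay just above 0 on both arrays, and TEF4 was lowest (-0.045 and -0.751). Among the eIF4 genes CAF20 was lowest (0.000 and -0.757), CDC33 had 0.274 and -0.835, TIF4631 had 0.383 and -0.258, and the eIF4A genes TIF1 (0.221 and -0.296) and TIF2 (-0.315 and 0.135) had opposite signs on the 2 arrays. None of these genes passed the test against wild type.

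In eIF3, NIP1 (0.221 and 0.094) was highest and PRT1 (-0.058 and -0.415) lowest. In the eIF2B complex, GCD2 (0.010 and -0.726) and GCD7 (-0.213 and -0.449) lay next to GCN3 at the low end, and GCD6 (0.305 and -0.080) was the highest of the eIF2 and eIF2B group. FUN12 had 0.398 and -0.026, and the release factor genes SUP45 (-0.057 and 0.169) and SUP35 (0.164 and -0.126) lay around 0.

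The 2 mutant arrays did not rank these genes alike. Across the 50 genes experiment 1 and experiment 2 correlated at r = -0.047 (Spearman rho -0.073), whereas across all 4765 genes it was 0.591 (rho 0.382), and on the alkali arrays the same genes gave 0.955. Experiment 1, with the mutant RNA in Cy5, was the higher for 44 of the 50, against 55.4% of all genes, and for all 17 synthetases. The median of experiment 1 minus experiment 2 was 0.328 for the 50 genes and 0.058 for all genes. The largest gaps were those of TEF1 (0.803 and -0.600), WRS1 (0.416 and -0.949), HTS1 (0.474 and -0.828), TIF5 (0.452 and -0.709) and CDC33. Within 1 comparison the dye and the experiment cannot be told apart. With a dye term in the fit 0 of the 50 genes passed in the mutant, against 15.7% of the 4315 genes measured on all 4 arrays.

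**Figure D5:**
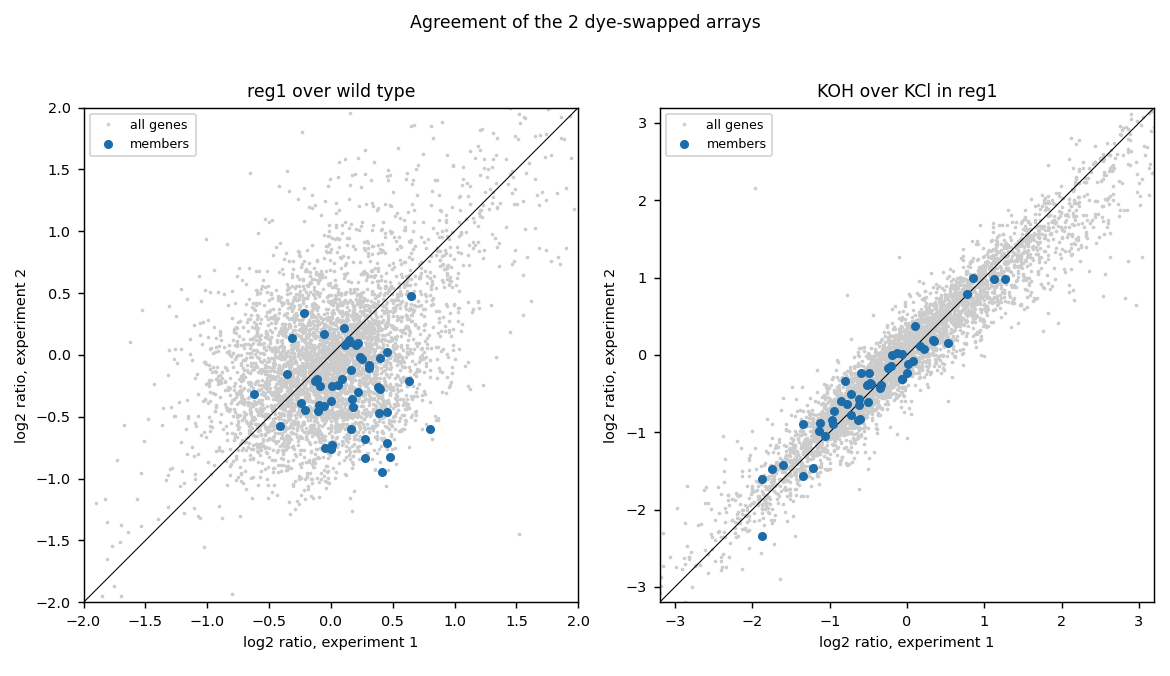
Log2 ratio of experiment 1 (x axis) against experiment 2 (y axis) for reg1 over wild type (left) and KOH over KCl (right), with all genes in grey, the 50 measured genes in blue and the line of equal values; points outside the axis ranges are not drawn. On the left most blue points lie below the line (44 of 50), and on the right they follow it (r = 0.955).

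The mutant and alkali means of the 50 genes, though far apart in size, were ordered alike (Pearson r = 0.723, Spearman rho 0.704 across genes). The order of the mutant means was not repeated between the 2 mutant arrays (r = -0.047), which limits this comparison. Across all 4315 genes measured on all arrays r was 0.344 and rho 0.421. TIF4632 was highest in both comparisons, and GCN3 and SUI1 were the 2 lowest in the mutant and among the 3 lowest under alkali. Gene length went with the mutant means as well (Spearman rho 0.625 over the 50 genes and 0.138 over all 4502 genes with a length). With the length trend removed from both comparisons the 50 genes gave r = 0.494 and rho 0.401 (0.325 and 0.382 over 4107 genes). That removal left a Spearman rho of 0.416 between length and the mutant means of the 50 genes, and of 0.096 for their alkali means. The mutant side of this comparison is therefore not free of length.

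Other genes of translation were described from 4 further lists. Of 15 other cytosolic factor genes measured under alkali 5 fell and 1 rose (median -0.135, against -0.085 over all genes). The share that fell, 33.3%, was near the 32.7% of all genes, and 6.67% rose against 29.1%. The lowest were EFB1, the exchange factor of eEF1A (-1.77 and -1.71, limma adjusted p = 0.000705), STM1, which binds ribosomes (-1.31 and -1.20), and DOM34, which acts on stalled ribosomes (-1.10 and -1.11). ARC1, the cofactor of the methionyl- and glutamyl-tRNA synthetases, had -0.61 and -0.70, and ANB1, the close copy of HYP2, had -0.65 and -0.48. Spots of ANB1 and HYP2 may also share signal. The one that rose was HEF3, a copy of YEF3, with 1.73 and 1.12. It was at 0.248 with the length trend removed and did not pass (limma adjusted p = 0.24). EAP1 (0.220), another eIF4E-binding protein, and the helicase gene DED1 (0.180) were next and did not pass. In the mutant 0 of 14 passed, with the lowest means for ANB1 (-0.366), DOM34 (-0.278) and CAM1 (-0.252), and the highest for HBS1 (0.302), PAB1 (0.242) and DED1 (0.180). HCR1 had no value on any array, and STM1 had 1 mutant value, -0.328.

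Mitochondrial synthetase genes did not lean the same way as the cytosolic ones under alkali. Those called cytosolic here include VAS1, which serves both compartments. Of 13 mitochondrial genes measured, 3 rose and 2 fell, and their median was 0.365, against -0.205 for the 17 cytosolic genes. Both shares, 23.1% higher and 15.4% lower, were under those of all genes (29.1% and 32.7%). ISM1 (0.76 and 0.79), MSK1 (0.78 and 0.65) and NAM2 (0.56 and 0.67), for isoleucine, lysine and leucine, rose, and MSM1 (-0.64 and -0.55) and DIA4 (-0.57 and -0.44), for methionine and serine, fell. MSR1 was the next lowest, with a mean of -0.05. With the length trend removed none of the 13 was called higher, 2 were called lower and their median was 0.011, against -0.653 for the cytosolic genes. The difference between the 2 lists was not tested. In the mutant none passed, with the highest means for MSD1 (0.426), NAM2 (0.26) and MSM1 (0.24) and the lowest for MSK1 (-0.28), MSR1 (-0.242) and ISM1 (-0.11). MSY1 had no value on any array.

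Of 6 mitochondrial translation factor genes, RRF1 was the one that rose in the mutant. RRF1, which encodes the mitochondrial ribosome recycling factor, had 0.817 and 1.329, a mean of 1.07 ± 0.36 (SD, n = 2; limma adjusted p = 0.0253). The elongation factor genes TUF1 (1.446 and 0.187) and MEF2 (1.187 and 0.434) had high means but did not pass. IFM1 (0.12), MEF1 (0.192) and MRF1 (0.394) had the lowest means of the 6. TSF1 matched no row. The median of the 6 was 0.602. Under alkali MEF2 (1.03 and 0.52) rose, RRF1 (0.50) and IFM1 (0.155) were next, and MRF1 (-0.21), TUF1 (-0.16) and MEF1 (0.065) were lowest. MEF2 was at 0.015 with the length trend removed and did not pass, whereas RRF1 was called higher (0.936, limma adjusted p = 0.00432) and MEF1 lower (-0.571, limma adjusted p = 0.0176).

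In the branch of the kinase Gcn2, which phosphorylates eIF2 when amino acids are scarce, GCN1 rose under alkali with 2.38 and 2.36 (limma adjusted p = 0.000195). The RNA of GCN4, the transcription factor gene of that branch, fell with -0.92 and -0.85 (limma adjusted p = 0.00737). Whether the 2 changes are linked was not tested. GCN1 was at -0.101 with the length trend removed and did not pass. GCN20 (0.315) and YIH1 (-0.165) did not pass, and GCN2 had a value on 1 alkali array, 2.25. In the mutant none of the 4 measured passed. GCN4 was highest with 0.490 and 0.991 (limma adjusted p = 0.0679), and it passed with the length trend removed (0.776, limma adjusted p = 0.0371). It was followed by GCN1 (0.296), GCN20 (0.022) and YIH1 (-0.242).

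Of the cytosolic ribosomal protein genes 117 of 118 fell under alkali (99.2%, against 32.7% of all genes), with a median of -1.67. In the mutant 11 of 120 fell, against 1.95% of all genes, with a median of -0.552 and 112 below 0 on both arrays. The 50 translation genes had medians of -0.42 under alkali and -0.091 in the mutant, and the difference between the 2 lists was not tested. With the length trend removed the ribosomal protein median under alkali was -1.297, against -0.776 for the 50 genes.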

How the data were processed

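Labelled cDNA of 4 spotted 2-colour arrays was measured by the submitters. The authors deposited a single log ratio for each row on each array. It was read as log2: both signs occur, and the highest value is 9.1. Per the labels, spots under 120 micrometres across or under 100 units in both dyes were left out. For background correction and normalization, the method is not given in the sources used here. Column medians lay between -0.12 and -0.028. Values were used without centring.

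Open reading frames were matched to symbols by locus tag (5662 of 6212 rows, RefSeq assembly R64). The register was checked from missing values: in rows YKL011C to YPR204W the numbers of mutant and alkali arrays measuring a row correlated at 0.042 at their own names and 0.753 with the mutant columns read 2 rows down, and there they were so read. The 199 rows from YAL067C to YBR047W were left out.

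Each comparison's mean was tested against 0 with limma 3.58.1 in R 4.3.3 (lmFit, eBayes, two-sided, all 4 arrays in 1 fit, prior of 3.68 degrees of freedom), with Benjamini-Hochberg adjustment over all rows measured on both arrays and a threshold of 0.05. The fit was tested on simulated data. Named genes were, per comparison, the highest and lowest mean of each role, the 8 lowest and 4 highest under alkali, the 4 highest and 4 lowest in the mutant, the copies TEF1, TEF2, EFT1, EFT2, TIF1, TIF2, TIF4631 and TIF4632, genes not measured on both arrays, and the 3 highest and 3 lowest of each further list. Other genes were named after their values were seen. Members and lists were chosen with earlier results of these data known. Ribosomal protein genes were taken by symbol. Alternatives covered the register, centring, scaling, the spread, a dye term, the experiment number as a block, missing rows, a 2-fold rule and each array left out. Whether the numbers 1 and 2 pair arrays across the comparisons is not known. A planned promoter search was not run, since no sequence table was used here.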

Additional observations from a re-analysis of the deposited data

How the results depend on the processing

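Counts over all genes depended on the spread and the scaling. In the mutant 341 genes were called, against 217 with displaced rows left out, 618 with arrays scaled to the same spread (363 higher and 255 lower, against 248 and 93), 153 with the spread of the comparison alone, 678 with a dye term (420 and 258), 172 by the 2-fold rule, and 153 to 240 with 1 array left out. Under alkali 2832 were called, against 1239 with scaling, 1297 by the 2-fold rule and 1230 to 3275 with 1 array left out. Without an array of the other comparison the spread comes from a comparison's own arrays by construction.

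Of the members, 0 were called in the mutant in the main setting. As deposited 1 was called lower (TIF1, at its unshifted row), and with scaling 1 was higher and 1 lower. Leaving out 1 array gave medians from -0.256 to 0.16, so the sign of the mutant median rests on single arrays. It also rests on the realigned rows, since with displaced rows left out the median was 0.019. The 25 realigned genes had a median of -0.17 and the 25 in register 0.019. Under alkali 4 were higher and 23 lower, against 2 and 6 with scaling (median -0.283), 0 and 7 by the 2-fold rule, and 0 to 4 higher and 7 to 28 lower with 1 array left out (medians -0.495 to -0.38). With the length trend removed, chosen after seeing the data, it was 0 and 35 (median -0.776). SUI1, GCN3, TIF11 and SUI3 passed in all 14 alternatives. Without the 5 rows that share the TEF1 values, also chosen later, the same 27 were called.

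With the length trend removed, these genes called in at least 1 of the 2 settings changed sign under alkali: ALA1 (-0.099), CDC60 (-0.198), VAS1 (-0.483), YEF3 (-1.03), HYP2 (0.021), TIF4631 (-0.778), RPG1 (-0.90), FUN12 (-0.842), NAM2 (-0.294), ISM1 (-0.332), ANB1 (0.026), MEF1 (-0.571) and GCN1 (-0.101). Of genes called in neither, GUS1 (-0.252), THS1 (-0.236), GCN20 (-0.301), EAP1 (-0.134), DED1 (-0.129), DBP1 (-0.234), IFM1 (-0.286), AIM10 (-0.228) and YIH1 (0.175) changed sign. As deposited, EAP1 in the mutant was at 1.15. Its row there holds another gene's values by the register check.

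With the replicate block (the experiment number as a term) 363 genes were called in the mutant and 2669 under alkali, 0 members in the mutant, and 4 higher and 23 lower under alkali, where FRS1 was lost and HTS1 gained. Deviations of same-numbered arrays correlated at -0.092 over 4315 genes. On same-numbered arrays the mutant RNA and the KOH RNA carried opposite dyes, so a dye effect could hide a shared experiment effect. This value therefore cannot show whether the numbers pair arrays across the comparisons. How far single spots stood above background is not known from these values.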
